A study of Mus musculus with 38 samples.

Results

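The proteasome is the large protease that degrades proteins marked with ubiquitin. Its barrel, the 20S core, is stacked from rings of alpha and beta subunits, and the 19S regulatory particle at its ends recognises, unfolds and feeds in substrates through a base with ATPases and a lid. Interferon induces Psmb8, Psmb9 and Psmb10, which take the places of the catalytic subunits Psmb5, Psmb6 and Psmb7 in an immunoproteasome known for making peptides for class I antigen presentation. In heart muscle the system turns over sarcomeric and damaged proteins.

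Transcripts of the proteasome were described in left ventricle from every gene whose symbol starts with Psma, Psmb, Psmc or Psmd and a digit and that reached 10 counts in at least 8 libraries. Of 29564 genes listed, 44 matched the symbol and 39 also met the count rule. The 5 left out were Psmb11, a thymus subunit, and the pseudogenes Psmb5-ps, Psmb6-ps, Psmb6-ps2 and Psmb7-ps2, with at most 3 counts in any library. All 39 were among the 13765 genes that passed the filter on low counts and were tested. By known role there were 14 constitutive 20S subunits, 17 subunits of the 19S particle, the 3 immunoproteasome subunits and 3 chaperones that assemble the 19S base (Psmd5, Psmd9 and Psmd10). The set also held Psma8, an alpha subunit known from testis, and Psmc3ip, a recombination protein that is not a subunit and whose symbol refers to an interaction with Psmc3.

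The 38 libraries came from left ventricles of wild-type C57BL6 mice (C57BL/6J in the methods), and each is named here by the number in its label, taken as that of 1 mouse. Non_failing controls (n = 8) were labelled as given vehicle. In the other 3 groups heart failure with preserved ejection fraction (HFpEF) was induced by a high-fat diet (HFD) and L-NAME, an inhibitor of nitric oxide synthases, and mice received vehicle (HFpEF+Veh, n = 8), empagliflozin, which inhibits SGLT2 (HFpEF+SGLT2i, n = 11), or TYA-018, which inhibits HDAC6 (HFpEF+TYA-018, n = 11). By the methods mice fed standard chow served for comparison in this model, so the parts of diet and L-NAME in a difference from non_failing cannot be told apart. The labels give the mice as female and the methods as male, and Ddx3y, a Y-linked gene, was at 13.4 to 23.4 TPM in every library. TPM is a level corrected for depth and transcript length, which allows levels of different genes to be compared.

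Depth was 21451630 to 59280406 counts per library, with overlapping group ranges. Markers of cardiomyocytes summed to 8376.4 TPM or more in every library, and 2 of 6 (Tnni3 and Tnnt2) were called lower in HFpEF+Veh than in non_failing, where called means an edgeR adjusted p under 0.05 over all genes unless another tool is named. All 5 fibroblast markers had fold changes above 0 in the same comparison, with 2 called (Lum and Pdgfra), where 3.15% of all genes were called. In HFpEF+SGLT2i against non_failing Tnni3 and Tnnt2 were also called lower and Pdgfra higher, beside 6.45% of all genes. With TYA-018 against non_failing Lum was called higher and 0 of 6 cardiomyocyte markers were called, beside 7.39% of all genes. HFpEF+Veh library V2523 stood apart, with 8 hepatocyte genes summing to 1323.4 TPM against at most 30.2 TPM in the other vehicle libraries, so results that it moved are also given without it. In non_failing the same genes summed to 20.2 to 342.5 TPM (highest in V2504), against at most 7.16 TPM in any treated library, and all 8 were called lower in each treated group than in non_failing. Against HFpEF+Veh all 8 were called lower in each treated group, but without V2523 this left 3 of 8 for HFpEF+TYA-018 and 0 of 8 for HFpEF+SGLT2i. In HFpEF+Veh against non_failing 7 of 8 were above 0 (median 0.76, 0 called), and without V2523 all 8 were called lower (median -3.64). In bulk RNA, fewer cells of a type and less RNA per cell cannot be told apart, and the part of these markers in the values below was not tested.

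Short stretches of promoter are shown for genes that carry letters known as binding motifs of factors of this pathway. RefSeq held a promoter on GRCm38.p6 for 32 of the 39 genes, and the 250 bases before each start were searched on both strands. The antioxidant response element core, TGACNNNGC, the motif of Nfe2l1 and Nfe2l2, matched in 5 of the 32 promoters (15.6%) against 11.5% of promoters of all 27025 genes. The gamma activated site, TTCNNNGAA, matched in Psmb8 alone (3.12%, against 8.13% of all genes), and the interferon stimulated response element core, GAAANNGAA, in Psmb3, Psmd4 and Psmd9 (9.38% against 8.18%). CCAAT matched in 13 (40.6% against 37.5%), and no match overlapped another. A match is a description of letters and not a site of binding. The sequences run 5′ to 3′ with the motif in capitals, TGACNNNGC (or its reverse complement) in the first 4 and TTCNNNGAA in Psmb8.
Psmb5: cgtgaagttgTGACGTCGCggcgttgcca
Psmb6: ctaaagagagTGACGGAGC
Psmc6: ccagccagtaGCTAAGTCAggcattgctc
Psmd12: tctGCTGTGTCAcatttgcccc
Psmb8: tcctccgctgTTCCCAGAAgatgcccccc
These lie at chr14:54618024-54618052 on the minus strand for Psmb5, and on the plus strand at chr11:70525338-70525356 for Psmb6, chr14:45329587-45329615 for Psmc6, chr11:107479278-107479299 for Psmd12 and chr17:34198088-34198116 for Psmb8. The first 4 are upstream of the gene in GENCODE M21, and that of Psmb8 overlaps an exon of a longer transcript model. In Psmb5 and Psmb6 the match began 47 and 9 bases before the start, respectively. Psma4 and Psmc4, taken up below, had a promoter entry and matched none of the 4 motifs.

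Levels differed widely between subunits. The catalytic subunits Psmb6 and Psmb5 were highest, at medians of 149.1 and 111.5 TPM over the 38 libraries, followed by Psmb4, a non-catalytic beta subunit, at 104.2 TPM. In the alpha ring, medians of the constitutive members ran from 28.0 TPM (Psma2) to 83.2 TPM (Psma7). The 17 genes of the 19S particle had a median of medians of 34.0 TPM, against 75.2 TPM for the 14 of the 20S core. Among ATPases of the base Psmc3 was highest (78.7 TPM) and Psmc2 lowest (26.7 TPM). Of the non-ATPases the ubiquitin receptor Psmd4 was highest (64.8 TPM) and the scaffold Psmd1 lowest (13.7 TPM). In the lid, medians ran from 15.2 TPM for Psmd11 to 41.0 TPM for Psmd8. Assembly chaperones were scarce, at 3.58 TPM for Psmd9, 3.83 TPM for Psmd5 and 4.89 TPM for Psmd10.

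Neighbours in this order mostly overlapped. Of 38 neighbouring pairs, 2 had ranges over libraries that did not meet, the steps from Psmd9 to Psmc3ip (median 1.38 TPM) and from Psmc3ip to Psma8 (median 0.30 TPM). Psma8 reached 10 counts in 29 libraries and had at most 32 counts in any, so its values rest on few reads. How Salmon divided reads between Psma8 and its paralog Psma7 was not tested.

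**Figure D1:**
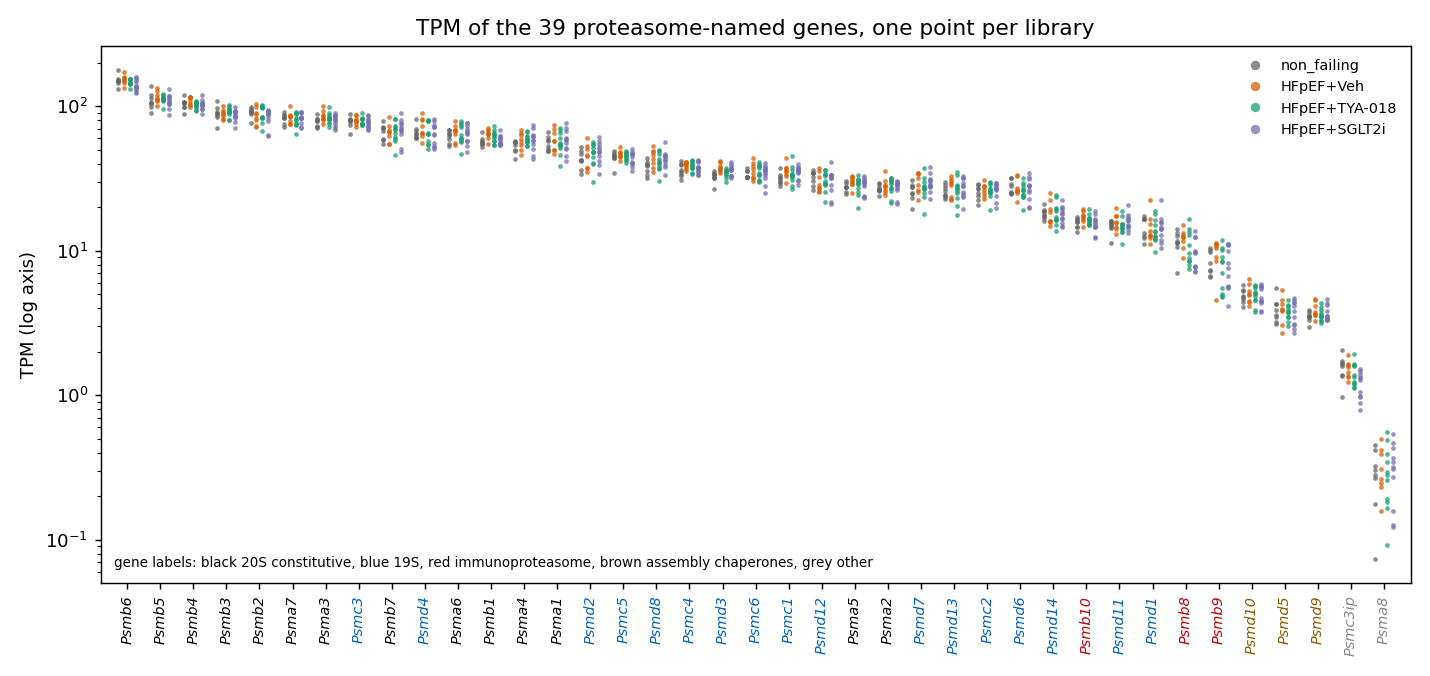
TPM on a log axis of the 39 genes, ordered by median over 38 libraries, with 1 point per library coloured by group and gene labels coloured by role. The 4 groups overlap for each gene, and medians fall from 149.1 TPM for Psmb6 to 0.30 TPM for Psma8.

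Summed over the 14 constitutive 20S genes, levels were 1056.0 ± 78.5 TPM in non_failing (SD, n = 8), 1095.3 ± 78.8 TPM in HFpEF+Veh (n = 8), 1071.8 ± 81.0 TPM in HFpEF+TYA-018 (n = 11) and 1050.7 ± 99.1 TPM in HFpEF+SGLT2i (n = 11). Over the 17 genes of the 19S particle they were 589.2 ± 39.4, 627.1 ± 47.7, 605.4 ± 46.2 and 610.3 ± 54.8 TPM in the same order. For both sums the means of HFpEF+Veh and the treated groups lay within 1 SD of each other. V2523 was the highest vehicle library in both, and without it the vehicle means were 1074.7 ± 57.2 and 616.4 ± 39.6 TPM (n = 7). The coefficient of variation over all libraries had a median of 10.4% in the 20S core (7.44 to 15.9%) and 13.8% in the 19S particle (7.24 to 20.7%).

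The inducible subunits were scarcer than the subunits they replace, and Psmb8 and Psmb9 were more variable than those. On GRCm38 with GENCODE M21, Psmb8 (chr17:34197721-34201454, plus strand) and Psmb9 (chr17:34181987-34187764, minus strand) lie beside the peptide transporter genes Tap1 and Tap2, and the models of Psmb9 and Tap1 overlap at their starts on opposite strands. The third, Psmb10, lies at chr8:105935735-105938444 on the minus strand. Psmb8 ranged from 7.0 through a median of 11.5 to 14.1 TPM in non_failing, from 8.87 through 12.4 to 15.0 TPM in HFpEF+Veh, from 7.1 through 9.63 to 13.7 TPM in HFpEF+SGLT2i and from 7.54 through 9.66 to 16.7 TPM in HFpEF+TYA-018. Leaving out V2523 moved neither the vehicle range nor its median. All groups overlapped, and HFpEF+TYA-018 held both values near the bottom and the highest value of the series. In both treated groups the libraries with the higher mouse numbers held the higher values. Psmb9 ranged from 6.58 through 7.78 to 10.4 TPM in non_failing, from 4.53 through 10.6 to 11.4 TPM in HFpEF+Veh (median 10.4 TPM without V2523), from 4.79 through 8.37 to 11.8 TPM in HFpEF+TYA-018 and from 4.17 through 7.56 to 11.1 TPM in HFpEF+SGLT2i. The low vehicle value was 1 library, V2532, and the other vehicle libraries were at 8.46 TPM or above. Psmb10 was the steadiest of the 3, at 13.4 to 17.1 TPM in non_failing, 14.6 to 19.4 TPM in HFpEF+Veh (the same without V2523), 15.1 to 19.5 TPM in HFpEF+TYA-018 and 12.2 to 18.9 TPM in HFpEF+SGLT2i. Over all libraries the coefficient of variation was 23.2% for Psmb8, 28.1% for Psmb9 and 10.4% for Psmb10, against 9.89% for Psmb5, 7.95% for Psmb6 and 15.2% for Psmb7.

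**Figure D2:**
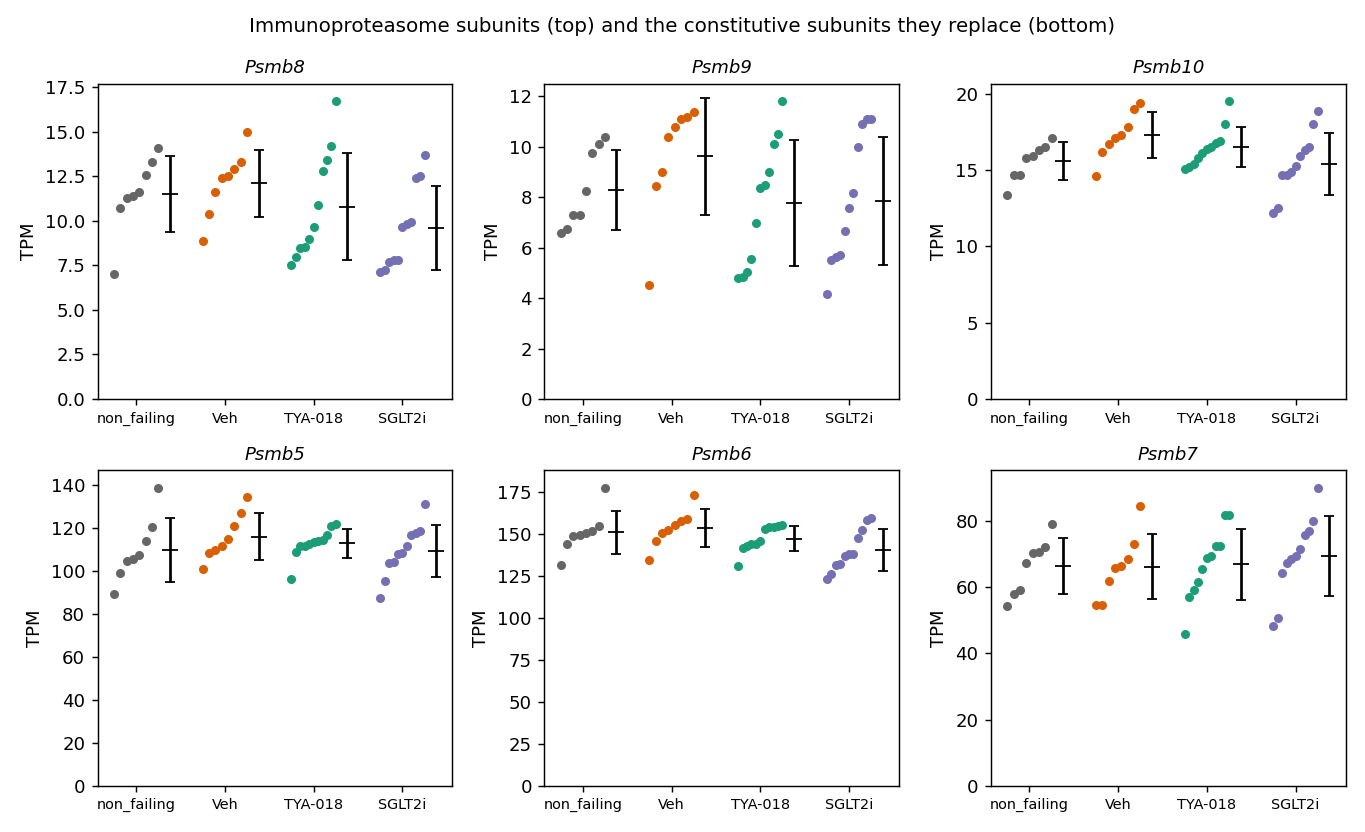
TPM of Psmb8, Psmb9 and Psmb10 (top) and of Psmb5, Psmb6 and Psmb7 (bottom) in the 38 libraries by group, 1 point per library, with the group mean ± SD and all axes from 0. All groups overlap, and the relative spread is widest for Psmb8 and Psmb9, whose coefficients of variation were 23.2% and 28.1%.

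Each inducible subunit was then set against the one it replaces in the same library, which removes the scaling of libraries. Psmb8 stood at a median of 11.3% of Psmb5 in non_failing (5.81 to 13.5%), 10.3% in HFpEF+Veh (8.65 to 13.7%), 8.29% (6.95 to 13.8%) in HFpEF+TYA-018 and 7.56% (6.15 to 13.2%) in HFpEF+SGLT2i. Psmb9 stood at medians of 5.31, 6.55, 5.55 and 4.83% of Psmb6 in the same order of groups. For Psmb10 the medians were 23.5, 26.7, 23.9 and 22.8% of Psmb7. Without V2523 the vehicle medians of the 3 ratios were 9.85, 6.25 and 28.0%. The groups overlapped for all 3 ratios. Of 18 two-sided tests on log2 ratios (3 ratios in 6 comparisons, exact permutation tests, or permutation with 100000 resamples between the 2 groups of 11), none had an adjusted p under 0.05, and adjusted values ran from 0.71 to 0.984. The smallest unadjusted value was for Psmb8 to Psmb5 in HFpEF+SGLT2i against HFpEF+Veh, with mean log2 ratios of -3.54 ± 0.40 and -3.27 ± 0.23 (SD, n = 11 and 8) and an exact permutation p = 0.101.

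Interferon response genes were summed beside these subunits. The 8 genes reached 23.4 to 45.9 TPM in non_failing, 33.2 to 60.6 TPM in HFpEF+Veh, 27.3 to 71.7 TPM in HFpEF+SGLT2i and 33.1 to 73.1 TPM in HFpEF+TYA-018. The highest library of HFpEF+TYA-018, V2551, had Psmb8 at 14.2 TPM and Psmb9 at 10.1 TPM, and the highest of HFpEF+SGLT2i, V2574, had 13.7 and 10.9 TPM. The highest of non_failing, V2502, had Psmb8 at 11.6 TPM and Psmb9 at 9.75 TPM, and the highest of HFpEF+Veh, V2529, had 12.5 and 11.2 TPM. Leaving out V2523 did not change the vehicle range of the summed interferon genes. Leukocyte markers (8 genes) summed to 26.8 to 76.0 TPM over all libraries with overlap of the groups, T and NK cell markers (4 genes) to at most 6.04 TPM, in V2551, and B cell markers (3 genes) to at most 2.79 TPM. In HFpEF+Veh against non_failing 7 of 8 leukocyte, 4 of 4 T and NK, 1 of 3 B cell and 8 of 8 interferon response genes were above 0. Of all genes 52.3% were, and edgeR called 0 in these 4 lists (3.15% of all genes). Leukocyte genes were above 0 for 8 of 8 with TYA-018 and 7 of 8 with empagliflozin against non_failing, with 0 called. In HFpEF+TYA-018 against non_failing 7 of the 8 interferon response genes were above 0 (median 0.34), with 1 called by edgeR, Irf7 at 0.53 ± 0.16 (adjusted p = 0.0363), which limma or library size alone did not call. Of all genes 51.0% were above 0 there and edgeR called 7.39%. An unadjusted p under 0.05 was found in edgeR for 4 of the 8, against 22.0% of all genes. The part of these genes in the spread of Psmb8 and Psmb9 was not tested.

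Whether HFpEF itself was accompanied by changes in these transcripts was asked in HFpEF+Veh against non_failing. By edgeR's quasi-likelihood test, at a Benjamini-Hochberg adjusted p under 0.05 over all genes tested, 0 of the 39 genes were called, where 3.15% of all genes were. Fold changes were small, from -0.22 for the lid subunit Psmd12 to 0.11 for Psmb8 and Psmd8 on the log2 scale, and their median of -0.01 was close to the 0.01 of all genes, with 17 of 39 above 0. With library size alone 31 of 39 were above 0, where 67.3% of all genes were, and on log2(TPM + 1) 32 of 39, where 68.0% were. A single gene, Psmb2, a non-catalytic beta subunit, had an unadjusted p under 0.05, against 15.9% of all genes. On CPM, counts per library size after TMM scaling, Psmb2 ranged from 59.8 through 66.1 to 72.4 in non_failing and from 49.6 through 58.9 to 68.1 in HFpEF+Veh. The groups overlapped, 7 of 8 vehicle libraries were under the control mean, and the log2 fold change was -0.19 ± 0.09 (SE, edgeR adjusted p = 0.295). DESeq2 called 0 of the 39 and 4.35% of all genes, with 3 of the 39 at an unadjusted p under 0.05, against 16.3% of all genes. Limma on log2(TPM + 1) called 3.16% of all genes and 1 of the 39, the lid subunit Psmd3, at 0.20 (adjusted p = 0.037), where edgeR gave 0.08 ± 0.05 (adjusted p = 0.421). Without V2523 edgeR again called 0, where it called 4.49% of all genes, with 3 at an unadjusted p under 0.05 (2623 of 13801 genes tested), and the median was -0.03. The immunoproteasome subunits were at 0.11 ± 0.22 (Psmb8), 0.09 ± 0.19 (Psmb9) and 0.03 ± 0.07 (Psmb10), with adjusted p from 0.853 to 0.86.

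The precision of each fold change is given by its interval from edgeR with TMM scaling. Each interval is for 1 gene in 1 comparison, and they do not hold jointly. They also leave out the shift between scalings. In HFpEF+TYA-018 against HFpEF+Veh, library size alone moved the median of all genes from -0.01 to -0.14. For each of the 31 constitutive 20S and 19S genes, the 95% interval of the fold change lay within 1.5-fold in either direction in all 6 comparisons, and in HFpEF+Veh against non_failing it lay within 1.3-fold for 30 of the 31, the exception being Psmd12. The interval was wider for Psmb8, from -0.34 to 0.57, and widest for Psma8, from -0.64 to 0.72.

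**Figure D3:**
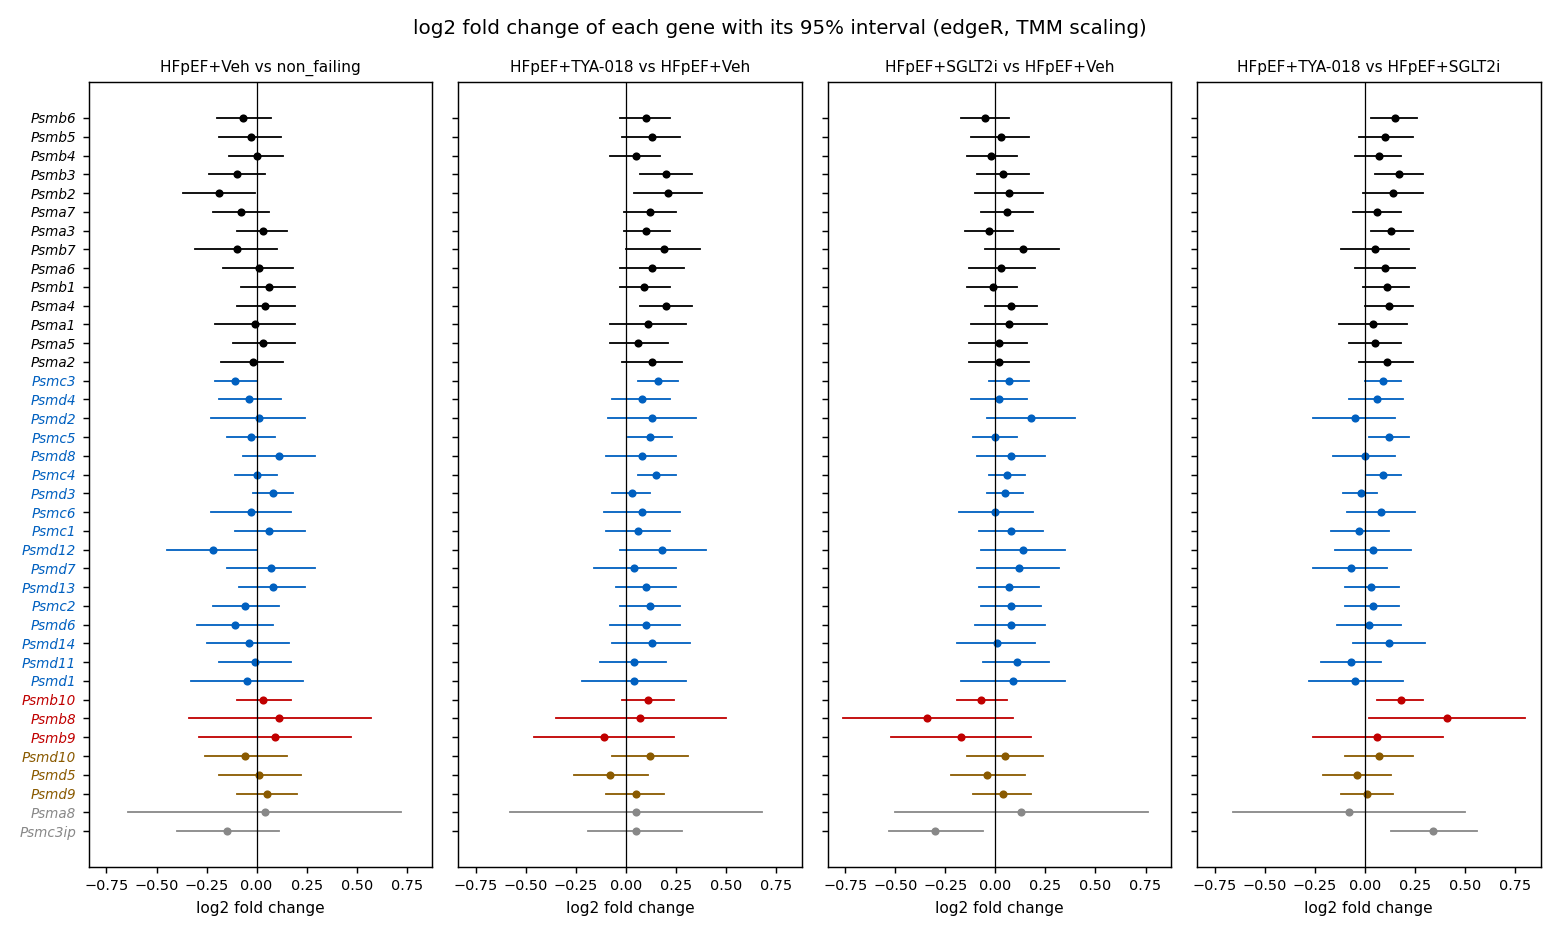
log2 fold change (point) with its 95% interval (line) for each of the 39 genes in 4 comparisons, from edgeR with TMM scaling, ordered by role and then by TPM. For TYA-018 against vehicle 37 of 39 points lie above 0, a count that falls to 8 with library size alone and to 6 on log2(TPM + 1), and no gene passes the threshold in these 4 comparisons. Of all genes 48.2%, 22.9% and 24.4% are above 0 in the same order of settings.

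The effect of HDAC6 inhibition in HFpEF was read in HFpEF+TYA-018 against HFpEF+Veh. Again edgeR called 0 of the 39 genes, beside 1.93% of all genes, with 6 at an unadjusted p under 0.05 (17.5% of all genes), and limma called 0. DESeq2 called 3, Psmb3, Psmc3 and Psmc4, where it called 2.92% of all genes, with 7 at an unadjusted p under 0.05 (17.7% of all genes). Fold changes were above 0 for 37 of 39 genes, with a median of 0.10 and a range from -0.11 (Psmb9) to 0.21 (Psmb2), where all genes had a median of -0.01 and 48.2% above 0. All 14 constitutive 20S genes were above 0 (median 0.12) and all 17 of the 19S particle (median 0.10), but with library size alone 5 of 14 and 3 of 17 were, and on log2(TPM + 1) 4 of 14 and 2 of 17. Of all genes 22.9% were above 0 with library size alone and 24.4% on log2(TPM + 1). Library size alone moved the median of all genes to -0.14 and that of the 39 to -0.03, so that 37 of the 39 were still above the median of all genes. On log2(TPM + 1) the medians were -0.08 and -0.04, with 31 of 39 above that of all genes. The sign of the median thus changed with the scaling, and its distance from all genes was not tested. Fold changes of cell markers in the same comparison were above 0 for 5 of 6 cardiomyocyte genes (median 0.21) and below 0 for all 5 fibroblast genes (median -0.27) and all 4 endothelial genes (median -0.13). With TMM scaling edgeR called 0 of these 15. All 8 hepatocyte genes were called lower, 3 of 8 without V2523, which also left 4 of 6 cardiomyocyte genes above 0. With library size alone 4 of 6 cardiomyocyte genes were above 0 as well, and the fibroblast and endothelial genes were again all below 0, with Pdgfra and Kdr called. Their part in the values of the 39 genes was not tested.

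**Figure D4:**
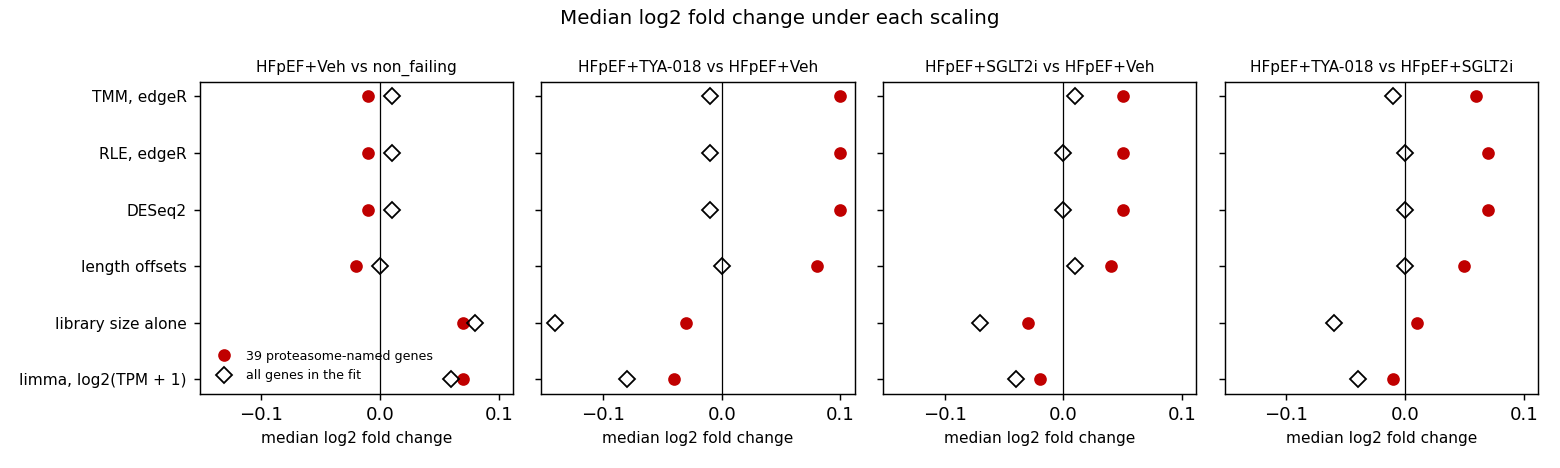
Median log2 fold change of the 39 genes (filled) and of all genes in the fit (open) under 6 scalings or tools, in 4 comparisons. With TYA-018 against vehicle the 39 genes lie to the right of all genes in each row, but on the negative side with library size alone (-0.03) and on log2(TPM + 1) (-0.04).

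The members with the smallest p in this comparison were 2 ATPases of the base, Psmc4 and Psmc3, and 2 subunits of the core, Psmb3 and Psma4. Psmc4 ranged from 52.2 through 55.7 to 59.0 CPM in HFpEF+Veh and from 56.8 through 62.5 to 68.6 CPM in HFpEF+TYA-018. The ranges overlapped from 56.8 to 59.0 CPM, and 11 of 11 treated libraries were above the vehicle mean (log2 fold change 0.15 ± 0.05 SE, edgeR adjusted p = 0.0685, DESeq2 adjusted p = 0.0248). Psmc3 ranged from 140.2 through 146.1 to 164.5 CPM and from 153.2 through 162.1 to 192.1 CPM in the same groups (0.16 ± 0.05, edgeR adjusted p = 0.0866, DESeq2 adjusted p = 0.0322). Psmb3, a non-catalytic beta subunit, was at 0.20 ± 0.06 (edgeR adjusted p = 0.0851), and Psma4 of the alpha ring at 0.20 ± 0.07 (edgeR adjusted p = 0.0919). On log2(TPM + 1) Psmc4 was at -0.01, Psmc3 at -0.00 and Psma4 at 0.05. Without V2523, 12 of the 39 had an unadjusted p under 0.05 (19.6% of all genes), 0 were called (1.42% of all genes) and the median was 0.13. Leaving out HFpEF+TYA-018 library V2550 also gave 12.

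Among the immunoproteasome subunits in the same comparison, Psmb10 was above the vehicle mean in 11 of 11 treated libraries at 0.11 ± 0.06 (edgeR adjusted p = 0.363), Psmb8 was at 0.07 (interval -0.35 to 0.50) and Psmb9 at -0.11 (interval -0.46 to 0.24). The chaperone Psmd5 was the other gene under 0, at -0.08 ± 0.09 (edgeR adjusted p = 0.706). The effective length of Psmb8, the mean transcript length Salmon used, varied from 651 to 1048 bases between libraries, and on log2(TPM + 1) its fold change was -0.17.

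Empagliflozin was read in HFpEF+SGLT2i against HFpEF+Veh. In this comparison edgeR called 0 of 39 genes beside 0.85% of all genes, with 1 at an unadjusted p under 0.05 (1383 of all 13765 genes), and DESeq2 and limma also called 0. The median fold change was 0.05 against 0.01 for all genes, with 29 of 39 above 0 (9 with library size alone and 11 on log2(TPM + 1)). Of all genes 51.6% were above 0, against 30.5% with library size alone and 34.1% on log2(TPM + 1). Psmd2, a scaffold of the base, was highest at 0.18 ± 0.11 (edgeR adjusted p = 0.595). The 3 immunoproteasome subunits were all under 0, also with library size alone and on log2(TPM + 1), at -0.34 ± 0.21 for Psmb8 (edgeR adjusted p = 0.612), -0.17 for Psmb9 (0.785) and -0.07 ± 0.06 for Psmb10 (0.768). Of the 8 interferon response genes 7 were also under 0 there, with 0 called by edgeR, DESeq2 or limma and 2 at an unadjusted p under 0.05 in edgeR. The gene with an unadjusted p under 0.05 was Psmc3ip, at -0.30 ± 0.12 (edgeR adjusted p = 0.302). Without V2523, 31 of 39 were above 0 and 0 were called, beside 2 of 13801 genes tested against 117 of 13765 with it.

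Both treatments share the HFpEF+Veh controls, so they were also compared directly. In HFpEF+TYA-018 against HFpEF+SGLT2i edgeR called 0 of 39 genes and 0% of all genes, with 9 of the 39 and 13.2% of all genes at an unadjusted p under 0.05, while DESeq2 called 0 of the 39, where it called 1.36% of all genes (11 at an unadjusted p under 0.05, against 13.7% of all genes) and limma 0. All 14 constitutive 20S genes were above 0 (median 0.10), against 12 with library size alone and 8 on log2(TPM + 1). Of all genes 48.4%, 34.3% and 35.5% were above 0 in the same order of settings. Of the 19S genes 10 of 17 were above 0 (median 0.03). Fold changes of the 39 genes were related to effective length, with a Spearman correlation across genes of -0.615 against -0.391 across all 13765 genes. With offsets for length it was -0.419 and -0.374. The sign of this relation differed between comparisons, at -0.362 (-0.278 across all genes) in HFpEF+TYA-018 against HFpEF+Veh, 0.349 (0.0519) in HFpEF+SGLT2i against HFpEF+Veh, 0.457 (0.0972) in HFpEF+SGLT2i against non_failing, 0.216 (0.0469) in HFpEF+Veh against non_failing and 0.00121 (-0.206) in HFpEF+TYA-018 against non_failing. The 20S genes are mostly the shorter, with a median of 823 bases (554 to 1799) against 1424 (1072 to 2421) for the 19S. Role and length thus go together in part, and the part of each was not tested.

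Psmb10 had the smallest p of the subunits in that comparison. It ranged from 26.6 through 27.7 to 33.1 CPM in HFpEF+TYA-018 and from 19.6 through 24.5 to 29.3 CPM in HFpEF+SGLT2i. The groups overlapped, though every TYA-018 library was above the SGLT2i mean (0.18 ± 0.06, interval 0.06 to 0.29, edgeR adjusted p = 0.164). Psmb8 was at 0.41 ± 0.19 (interval 0.02 to 0.80, edgeR adjusted p = 0.351), with 5 of 11 TYA-018 libraries above the SGLT2i mean, and at 0.15 on log2(TPM + 1). Of the 8 interferon response genes 7 were above 0 in the same comparison, with 0 called by edgeR (4 at an unadjusted p under 0.05) or limma and 1, Ifit1, by DESeq2. Psmd11 of the lid was under 0, at -0.07 ± 0.07 (edgeR adjusted p = 0.78).

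Against non_failing, HFpEF+TYA-018 gave 2 calls among the 39 genes, a share of the members under the 7.39% of all genes that were called. Psma4 (chr9:54950790-54958030, plus strand) ranged from 58.6 through 67.3 to 76.5 CPM in non_failing, from 56.6 through 68.8 to 76.9 in HFpEF+Veh (56.6 through 68.6 to 72.6 without V2523), from 73.1 through 76.7 to 87.9 in HFpEF+TYA-018 and from 56.6 through 73.0 to 83.1 CPM in HFpEF+SGLT2i. The lowest TYA-018 library lay above the median of every other group, with overlap at the top of each. Psma4 rose by 0.25 ± 0.07 on the log2 scale (interval 0.11 to 0.38, edgeR adjusted p = 0.0149), in 11 of 11 libraries. The call held in 38 of 38 fits that each left out 1 library, but not with library size alone (adjusted p = 0.095), length offsets (0.156) or limma on log2(TPM + 1) (0.151).

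Psmc4 (chr7:28041707-28050101, minus strand) was the other call, at 0.15 ± 0.05 (interval 0.06 to 0.24, edgeR adjusted p = 0.0399). It ranged from 49.4 through 56.8 to 60.4 CPM in non_failing, against 56.8 through 62.5 to 68.6 CPM in HFpEF+TYA-018, with overlap. The call held in 26 of 38 fits that left out 1 library, with adjusted p up to 0.111, and was lost without V2503, V2504, V2507, V2508, V2510, V2543, V2546, V2548, V2549, V2552, V2555 or V2561. It was also lost with library size alone (0.307), length offsets (0.153), limma (0.471), no filter on low counts (0.0598) and a fit of only the 2 groups (0.082). In all, 33 of 39 genes were above 0 with a median of 0.09, against 0.01 for all genes, but 26 were with library size alone and 25 on log2(TPM + 1). Of all genes 51.0%, 39.3% and 44.0% were above 0 in the same order of settings.

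For HFpEF+SGLT2i against non_failing, with the same controls, 1 of 39 genes was called beside 6.45% of all genes. It was Psmc3ip (chr11:101091823-101095436, minus strand), the gene that is not a subunit. Psmc3ip ranged from 1.69 through 2.24 to 2.73 CPM in non_failing, from 1.66 through 2.0 to 2.46 in HFpEF+Veh, from 1.71 through 2.09 to 2.62 in HFpEF+TYA-018 and from 1.07 through 1.74 to 1.97 CPM in HFpEF+SGLT2i. The SGLT2i libraries were the lowest group, with overlap, on 25 to 120 counts per library over the series. Psmc3ip fell by 0.44 ± 0.12 on the log2 scale (edgeR adjusted p = 0.0137) in 11 of 11 libraries, and the call held in 38 of 38 fits that left out 1 library but not with limma (0.098). Between the treatments, in HFpEF+TYA-018 against HFpEF+SGLT2i, Psmc3ip was at 0.34 ± 0.11 (adjusted p = 0.138). The lid subunit Psmd3 was at 0.13 ± 0.05 in HFpEF+SGLT2i against non_failing (edgeR adjusted p = 0.0732, DESeq2 adjusted p = 0.0307). The median of the 39 genes was 0.00, with 18 above 0, and the immunoproteasome subunits lay between -0.22 (Psmb8) and -0.03 (Psmb10).

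Partners of the proteasome were described from lists of 44 other genes. Among 5 activators and inhibitors, Psme1, a subunit of the PA28 activator that is induced by interferon, stood at 75.8 ± 8.17 TPM in non_failing (SD, n = 8), 62.4 ± 4.88 TPM in HFpEF+Veh (n = 8), 64.8 ± 5.46 TPM in HFpEF+TYA-018 (n = 11) and 62.3 ± 9.08 TPM in HFpEF+SGLT2i (n = 11). It fell by 0.39 ± 0.09 on the log2 scale in HFpEF+Veh against non_failing (edgeR adjusted p = 0.00912, 8 of 8 libraries, 38 of 38 fits that left out 1 library). Psme1 was the 1 gene of the 44 called there by edgeR, beside 3.15% of all genes. In HFpEF+SGLT2i against non_failing it fell by 0.30 ± 0.08 (adjusted p = 0.0206, 11 of 11 libraries), a call lost without V2501 (0.0506) or V2502 (0.051) and in a fit of the 2 groups alone (0.0713). That comparison had 3 of the 44 genes called by edgeR, beside 6.45% of all genes. Psme1 in HFpEF+TYA-018 against non_failing was at -0.18 ± 0.08 (edgeR adjusted p = 0.193), though limma on log2(TPM + 1) called it (-0.22, adjusted p = 0.0333). Its partner in the activator, Psme2, was at 43.8 ± 4.08 TPM in non_failing and 46.3 ± 5.9 TPM in HFpEF+Veh, with adjusted p = 0.986.

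Of 11 assembly factors and associated genes, 1 was called in any comparison, Psmg2, a chaperone of alpha ring assembly, at 0.23 in HFpEF+TYA-018 against non_failing, where 7.39% of all genes were called (edgeR adjusted p = 0.0259, 34 of 38 fits that left out 1 library). The call on Psmg2 was lost with length offsets or only the 2 groups (0.0661 for each), library size alone (0.179) and limma (0.161). In HFpEF+TYA-018 against HFpEF+Veh all 11 were above 0 (48.2% of all genes), against 4 of 11 with library size alone (22.9%) and 2 of 11 on log2(TPM + 1) (24.4%). There edgeR called 0, with 3 at an unadjusted p under 0.05 (0 with library size alone or limma), where 17.5% of all genes were. The maturation factor Pomp was at 0.02 ± 0.09 there (adjusted p = 0.921).

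The 10 genes of class I antigen presentation and interferon signalling included 1 call, B2m, the light chain of class I molecules, at -0.42 ± 0.13 in HFpEF+SGLT2i against non_failing, where 6.45% of all genes were called (edgeR adjusted p = 0.0454, 26 of 38 fits that left out 1 library, adjusted p up to 0.0947). The call on B2m was also lost with limma (-0.33, adjusted p = 0.142), no filter on low counts (0.052) and library size alone (0.0501). Its levels were 514.1 ± 65.9 TPM in non_failing, 528.0 ± 77.3 TPM in HFpEF+Veh, 435.6 ± 71.5 TPM in HFpEF+TYA-018 and 408.7 ± 80.5 TPM in HFpEF+SGLT2i. Tap1, next to Psmb9 on chromosome 17, was at 0.14 ± 0.19 in HFpEF+Veh against non_failing (adjusted p = 0.767). Of 4 muscle ubiquitin ligases, Fbxo21 rose by 0.48 ± 0.13 in HFpEF+SGLT2i against non_failing (adjusted p = 0.0151), where the atrophy ligases Trim63 and Fbxo32 were at 0.03 ± 0.17 and 0.15 ± 0.16. In HFpEF+TYA-018 against non_failing Fbxo21 was at 0.35 ± 0.13 (edgeR adjusted p = 0.0774), and it was called there with limma (0.0447), with length offsets (0.0378) and by edgeR without V2523 (0.0468). Of 4 regulators of subunit transcription 0 were called by edgeR, DESeq2 or limma in any comparison. In edgeR 1, Nfe2l1, a factor that induces proteasome genes, had an unadjusted p under 0.05, at 0.33 ± 0.14 in HFpEF+SGLT2i against non_failing (adjusted p = 0.152). Limma also had 1 of the 4 at that level in HFpEF+Veh against non_failing (17.4% of all genes) and in HFpEF+TYA-018 against HFpEF+Veh (19.6%). In HFpEF+Veh against non_failing Nfe2l1 was at 0.23 ± 0.14 (adjusted p = 0.456). In HFpEF+TYA-018 against HFpEF+Veh edgeR called 0 of the 44 genes (1.93% of all genes), with 7 at an unadjusted p under 0.05 (17.5% of all genes), DESeq2 and limma 0, and edgeR without V2523 called 1, Fbxo21. In HFpEF+SGLT2i against HFpEF+Veh edgeR and limma called 0, with 4 at an unadjusted p under 0.05 in edgeR (1383 of all 13765 genes), and DESeq2 1, again Fbxo21. With length offsets edgeR also called Fbxo21 there (adjusted p = 0.0479, 0.792% of all genes called). Without a filter on low counts it did so too (0.0291, 2.09% of all genes called). Between the treatments edgeR, DESeq2 and limma called 0, with 4 at an unadjusted p under 0.05 in edgeR (13.2% of all genes).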

How the data were processed

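Messenger RNA of left ventricle was sequenced in 38 libraries of 4 groups, and the authors quantified transcripts with Salmon 1.6.0 per the labels. Tables of all genes were used, and every column was matched to 1 sample by its title (0 columns without a sample). The deposited counts are expected counts, which are estimated and need not be whole, and were rounded before testing. The deposited TPM values, scaled by the authors to depth and length, summed to 950658 to 965392 per library. The deposited effective lengths (in bases, as a mean over the transcripts of a gene) were used for offsets and for the relation to length. The labels name a human build and the methods GRCm38, and gene symbols were those of mouse, so GRCm38 with GENCODE M21 was used for positions. Labels and methods also differ on read length and on treatment length.

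Counts were tested with edgeR 4.0.16 in R 4.3.3 (quasi-likelihood, TMM scaling, filterByExpr, 1 model of 4 groups, Benjamini-Hochberg over 13765 genes, threshold 0.05). Alternatives were DESeq2 1.42.0, limma 3.58.1 on log2(TPM + 1) over genes detected in at least 90% of libraries, relative log expression scaling, library size alone, length offsets, no filter, the 2 groups alone and each library left out. The fitting code was tested on simulated data. Groups were taken from the titles, and each library was taken as 1 mouse by the number in its label, so p-values measure the spread between these libraries. Genes named were those called, the catalytic and inducible subunits, the highest and lowest of each role by TPM, and the smallest p in each direction of the first 4 comparisons. Psma2, Psmb3, Psmc6 and Psmd12 were named after their values were seen. Members, lists and tests were chosen with earlier results of these data known. One result of the partner lists is not reported here.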

Additional observations from a re-analysis of the deposited data

Results flagged for a closer look

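A library stood far from the rest of its group, by Dixon's test at the 95% level, for 7 of 56 values and groups of 8 tested. Chance flags about 1 in 20 groups. Psma7 was at 100.4 TPM in HFpEF+Veh library V2523, against 75.3 to 86.4 TPM in the other vehicle libraries. V2523 is also the library with the highest sum of hepatocyte transcripts. Psmb9 was at 4.53 TPM in HFpEF+Veh library V2532, against 8.46 to 11.4 TPM, and the log2 ratio of Psmb9 to Psmb6 there was -4.89, against -4.11 to -3.77. In the same library Psmd1 was high, at 22.5 TPM against 11.1 to 16.5 TPM. Non_failing library V2507 was low for 2 lid subunits, at 11.4 TPM for Psmd11 (14.3 to 16.1 TPM in the others) and 26.7 TPM for Psmd3 (31.7 to 35.8 TPM). Psmd4 was at 81.1 TPM in non_failing library V2502, against at most 69.7 TPM. Without V2523 or V2532 edgeR still called 0 of the 39 genes in HFpEF+Veh against non_failing.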

How the results depend on the processing

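In HFpEF+Veh against non_failing the 0 called genes became 1 with limma on log2(TPM + 1), which called 3.16% of all genes. For HFpEF+TYA-018 against HFpEF+Veh the 0 became 3 with DESeq2 (2.92% of all genes) and 0 to 1 when each library was left out (1 without V2570, Psmc4), and the median of 0.10 became -0.03 with library size alone and -0.04 with limma on log2(TPM + 1). For HFpEF+TYA-018 against non_failing the 2 called genes became 1 without a filter or with only the 2 groups, 0 with library size alone, 0 with length offsets, 0 with limma, and 1 to 2 when each library was left out. Of all genes, 4.46% were called without a filter and 7.27% with only the 2 groups. The shares were 6.57% with library size alone, 6.18% with length offsets and 4.4% with limma. In HFpEF+SGLT2i against non_failing the 1 call became 2 with DESeq2, 0 with limma, and 1 to 2 when each library was left out (2 without V2550, V2571 or V2572, Psmd3 being added). DESeq2 called 8.2% of all genes there and limma 3.75%. Library size alone and limma also put the median of all genes at -0.14 and -0.08 in HFpEF+TYA-018 against HFpEF+Veh, and the cause was not tested. The ratios of inducible to constitutive subunits kept their side of the threshold under each alternative run. Under library size alone and limma, 18 and 19 of the 25 named genes changed sign in HFpEF+TYA-018 against HFpEF+Veh. Depth limits Psma8, with at most 32 counts, and Psmc3ip. No paired analysis was possible because the mouse numbers differ in every group.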

Other observations

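Within the treated groups Psmb8 went with mouse number, when each group was divided at its middle number. In HFpEF+TYA-018 the 5 lower numbers (V2543 to V2549) held Psmb8 at 7.54 to 9.66 TPM, the middle one, V2550, at 8.55 TPM, and the 5 upper ones (V2551 to V2570) at 10.9 to 16.7 TPM. The 5 lower numbers of HFpEF+SGLT2i (V2561 to V2565) were at 7.1 to 7.8 TPM, V2566 at 9.91 TPM, and the 5 upper ones (V2571 to V2575) at 9.63 to 13.7 TPM. On CPM the lower and upper libraries were also apart, at 6.6 to 9.0 and 13.5 to 27.0 with TYA-018 and at 6.06 to 7.97 and 8.96 to 15.4 with empagliflozin. Among controls the 4 lower numbers overlapped the 4 upper ones, at 7.0 to 12.6 and 11.3 to 14.1 TPM, and so did those of HFpEF+Veh, at 11.6 to 15.0 and 8.87 to 13.3 TPM. Psmb9 was apart on TPM with TYA-018, at 4.79 to 6.97 and 8.37 to 11.8 TPM, and overlapped with empagliflozin, at 4.17 to 8.17 and 5.65 to 11.1 TPM. Psmb5, the counterpart of Psmb8, overlapped in both treated groups. The division was made after the values were seen, the labels name no batch or order of handling, and the pattern was not tested.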
